A study of Mus musculus with 20 samples.

Results

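Rprm, Cxxc5, Eln, Egln3 and Pid1 are 5 mouse genes, of 55487 in the deposited count table, whose difference between genotype labels in neuronal somata was unlike that in growth cones. They were selected on these same libraries, by contrasting the 2 differences over all 20 libraries with edgeR's quasi-likelihood F test. Of 17645 genes tested, 7 passed a false discovery rate (FDR) of 0.05 in that contrast, which is 0.0397%, and these 5 are among them. Their differences between genotype labels are therefore described below and were not tested. In somata labelled KO, Rprm, Cxxc5 and Eln were higher than in WT somata, while Egln3 and Pid1 were lower. In growth cones, Egln3 was higher and Rprm lower in every library labelled KO than in every WT library, and the other 3 genes overlapped between the labels.

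The libraries came from subcerebral projection neurons, the cortical neurons that send axons to the brainstem and spinal cord, of mice at postnatal day 1. Somata were taken from cortex and growth cones, the motile tips of growing axons, from brainstem and spinal cord, and in each compartment 5 libraries were labelled WT and 5 as null for Bcl11b (KO). Bcl11b encodes a zinc finger transcription factor, and the study's title concerns its part in the development of these axons. The deleted part of the gene, the strain, the number of animals per library and the way somata and growth cones were isolated are not given in the sources used here. Growth cone libraries of both labels carry experiment numbers 7 to 11. WT somata carry 12, 14, 22, 25 and 26, and somata labelled KO carry 14, 15, 22, 25 and 26.

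The 5 genes are known from different processes. Rprm (Reprimo) is a target of p53 that can hold cells before mitosis. Cxxc5 encodes a zinc finger protein that binds unmethylated CpG DNA and the Wnt pathway protein Dishevelled, and BMP signals induce it. Eln encodes tropoelastin, the monomer of elastic fibres, which is best known from smooth muscle and fibroblasts. Egln3 encodes the prolyl hydroxylase PHD3, which marks hypoxia-inducible factor (HIF) for degradation and is itself a HIF target. Pid1 encodes an adaptor with a phosphotyrosine-binding (PTB) domain that binds LRP1 and is known for dampening insulin signalling.

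Rprm and Egln3 are the members whose label groups were separate in both compartments, in opposite directions, and the 250 bases before their RefSeq starts (GRCm38.p6) are shown for that reason. The windows are chr2:54085553-54085802 and chr12:54203875-54204124, both on the minus strand and written 5′ to 3′ along the gene. Capitals mark a match to 1 of 3 motifs searched on both strands.
Rprm: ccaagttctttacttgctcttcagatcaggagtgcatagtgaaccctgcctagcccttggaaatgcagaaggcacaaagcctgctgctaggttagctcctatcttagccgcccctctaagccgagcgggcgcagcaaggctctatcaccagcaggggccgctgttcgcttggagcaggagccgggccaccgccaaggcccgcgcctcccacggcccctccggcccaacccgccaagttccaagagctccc
Egln3: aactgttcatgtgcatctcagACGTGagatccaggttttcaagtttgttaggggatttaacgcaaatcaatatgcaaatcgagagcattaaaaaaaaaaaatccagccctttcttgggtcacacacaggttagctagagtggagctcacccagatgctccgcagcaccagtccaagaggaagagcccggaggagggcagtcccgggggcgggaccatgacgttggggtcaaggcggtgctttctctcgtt
The motifs were TGACCA, known as a site of the Bcl11b paralog Bcl11a, and ACGTG and GCGTG, the core of the hypoxia response element. The only match was ACGTG in Egln3, from -229 to -225 relative to the start. Among all 32851 windows of this length in the RefSeq table, 11.4% held TGACCA, 16.6% held ACGTG and 28.2% held GCGTG. These letters were searched as a description and nothing is drawn from a missing match. The Rprm window held 13 CpG and the Egln3 window 10, against a median of 6 over all windows.

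All positions are on GRCm38, as in the deposited table. Rprm is a gene of 1 exon at chr2:54084093-54085552 on the minus strand. Cxxc5 lies at chr18:35829397-35861688 on the plus strand, and Eln at chr5:134702593-134747323 on the minus strand. Egln3 lies at chr12:54178981-54203860 and Pid1 at chr1:84036296-84364180, both on the minus strand. Of the exon bases of Eln, 267 overlap the antisense gene Gm30003, and Cxxc5 shares 49 with AC141471.2 and 11 with the antisense gene Gm29417. The use of strand in counting is not given in the sources used here, so reads in those bases cannot be assigned to 1 gene.

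Total counts per library ranged from 18962308 to 51205154, with growth cones at 21657575 to 29323028, WT somata at 18962308 to 36059112 and somata labelled KO at 35243688 to 51205154. Levels are counts scaled to the library size (CPM) with TMM scaling over all 20 libraries, and errors are SD over n = 5 libraries. Bcl11b itself went against the soma labels. It stood at 701 ± 130 CPM in WT somata and 1152 ± 56.8 CPM in somata labelled KO, a difference of 0.74 in mean log2(CPM + 0.5) (two-sided exact permutation p = 0.00794, the lowest value 5 against 5 can give). In growth cones it was 101 ± 19.3 CPM (WT) and 102 ± 35.1 CPM (labelled KO), a difference of -0.03 (exact permutation test, two-sided, p = 0.944). Whole-gene counts include any exon outside the deleted part, so they do not by themselves tell the alleles apart. Groups are called by their labels throughout, and every direction between labels rests on those labels.

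Rprm, the p53 target, had the highest level per kilobase of exon of the 5 genes in every group. In WT somata, experiments 12, 14, 22, 25 and 26, it stood at 364, 293, 300.2, 316 and 246 CPM. In somata labelled KO, experiments 14, 15, 22, 25 and 26, it stood at 567, 590, 533, 488 and 530 CPM. The lowest library labelled KO was thus above the highest WT library. The group means were 304 ± 42.4 and 542 ± 38.8 CPM, a log2 difference of 0.83 ± 0.11 (SE), or 1.78-fold. In WT growth cones 7 to 11 it stood at 123, 157, 135, 179 and 135 CPM, and in growth cones 7 to 11 labelled KO at 108, 108, 111, 88.2 and 71.9 CPM. Here the order was turned around, with all 5 libraries labelled KO below all 5 WT libraries. The means were 146 ± 22.3 and 97.5 ± 17.0 CPM, a log2 difference of -0.57 ± 0.18 (SE). In these bulk libraries, fewer cells or growth cones that carry a transcript cannot be told apart from less of it in each.

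Cxxc5 was scarce in WT somata, at 4.52, 6.73, 3.74, 2.46 and 5.86 CPM in experiments 12, 14, 22, 25 and 26. Somata labelled KO held 21.1, 24.98, 20.7, 26.8 and 13.6 CPM in experiments 14, 15, 22, 25 and 26. All 5 were above every WT soma library. The means were 4.66 ± 1.69 and 21.4 ± 5.10 CPM, a log2 difference of 2.20 ± 0.32 (SE), or 4.59-fold. Growth cones held more of this transcript than either soma group, at 72.3, 80.1, 47.9, 77.1 and 56.1 CPM in WT libraries 7 to 11. In growth cones 7 to 11 labelled KO it stood at 36.9, 42.7, 49.0, 69.9 and 34.6 CPM. The growth cone groups overlapped, since libraries 9 and 10 labelled KO exceeded the lowest WT library. The log2 difference there was -0.49 ± 0.27 (SE).

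Eln, the elastin gene, had the largest upward soma difference of the 5 genes on the log2 scale. WT somata 12, 14, 22, 25 and 26 held 6.28, 4.85, 8.07, 9.37 and 3.22 CPM. Somata 14, 15, 22, 25 and 26 labelled KO held 52.9, 55.8, 41.4, 39.8 and 38.7 CPM. The groups were far apart, with means of 6.36 ± 2.46 and 45.7 ± 7.99 CPM and a log2 difference of 2.84 ± 0.29 (SE), or 7.14-fold. WT growth cones 7 to 11 ranged widely, at 16.4, 19.9, 31.1, 49.5 and 32.1 CPM, and those with the KO label stood at 34.4, 23.0, 12.5, 27.8 and 21.5 CPM. These groups were interleaved, with a log2 difference of -0.32 ± 0.42 (SE). Without WT growth cone 10, the highest of them, that value was -0.04.

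Egln3 was the member with the most opposed pattern. In WT somata 12, 14, 22, 25 and 26 it stood at 20.2, 12.3, 24.05, 21.2 and 14.01 CPM. In somata 14, 15, 22, 25 and 26 labelled KO it stood at 4.65, 0.145, 1.11, 1.89 and 3.92 CPM, of which library 15 held only 6 counts. All libraries labelled KO were below all WT libraries. The means were 18.4 ± 4.98 and 2.34 ± 1.89 CPM, a log2 difference of -2.98 ± 0.68 (SE), or 7.86-fold lower. Growth cones showed the reverse. The WT libraries 7 to 11 stood at 0.767, 4.16, 1.48, 0.532 and 1.47 CPM, and those with the KO label at 24.25, 6.45, 13.8, 13.3 and 21.4 CPM. The groups were separate, with means of 1.68 ± 1.45 and 15.9 ± 7.08 CPM and a log2 difference of 3.26 ± 0.78 (SE), or 9.61-fold. Experiment 8 held the highest of the WT growth cone values and the lowest of those labelled KO.

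Pid1 was the steadiest gene within WT somata, at 75.4, 74.6, 75.4, 80.0 and 80.6 CPM in experiments 12, 14, 22, 25 and 26. Somata 14, 15, 22, 25 and 26 labelled KO held 21.4, 19.7, 15.04, 13.8 and 31.3 CPM, all below the WT range. The means were 77.2 ± 2.85 and 20.2 ± 6.96 CPM, a log2 difference of -1.94 ± 0.21 (SE), or 3.83-fold lower. WT growth cones 7 to 11 scattered from low to high, at 31.3, 52.7, 87.8, 43.0 and 71.5 CPM. Their counterparts with the KO label had 69.2, 46.6, 73.5, 70.8 and 60.6 CPM, inside the WT range. The log2 difference was 0.18 ± 0.29 (SE).

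**Figure D1:**
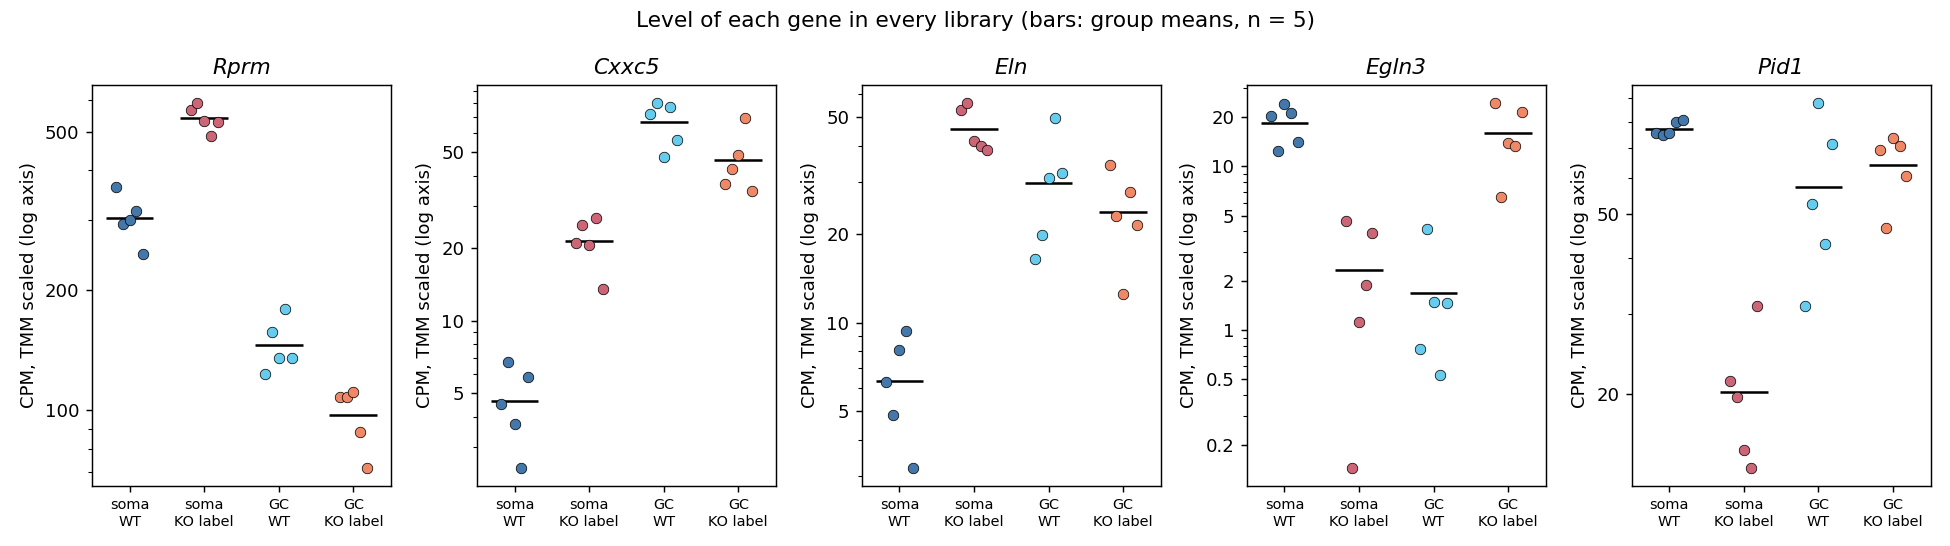
Level of each gene in CPM (log axis, TMM scaled) in every library, with points for libraries and bars for group means (n = 5 per group). In somata the label groups are separate for all 5 genes, and in growth cones they are separate for Rprm and Egln3, where the order is opposite to that in somata.

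Separate label groups were therefore found for 5 of 5 genes in somata and for 2 of 5 in growth cones. Over all genes tested, 3.17% had no overlap between the labels in somata and 0.532% in growth cones. By edgeR at FDR 0.05, 0.731% of 14911 genes were called in somata. In growth cones 0% of 15419 genes were called, while the DESeq2 Wald test called 11 and limma-voom 0. At an unadjusted p under 0.05 edgeR had 329 genes there, fewer than the 771 expected by chance at that level. Since the choice of these genes used the same differences, these shares are background and nothing is read from them about the members.

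The contrast that selected the genes is the label difference in growth cones minus that in somata. It was -1.42 ± 0.20 (SE) for Rprm, -2.72 ± 0.42 for Cxxc5 and -3.17 ± 0.50 for Eln, and 6.20 ± 1.04 for Egln3 and 2.09 ± 0.37 for Pid1, all on the log2 scale. The soma part was the larger of the 2 for Cxxc5, Eln, Pid1 and Rprm, while for Egln3 both parts were of similar size. The adjusted p-values of edgeR that chose them ran from 0.00970 for Rprm to 0.0425 for Pid1, the member nearest the threshold. Just outside it lay Gm8098 at 0.0506 and Maml3 at 0.0581. The remaining called genes were Cck, at -2.21 ± 0.34 (SE), and Morn5, which had 0 counts in all 5 growth cone libraries labelled KO. Of the 7 genes 2 were positive and 5 negative, and with library totals in place of TMM 4 were positive and 6 negative.

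**Figure D2:**
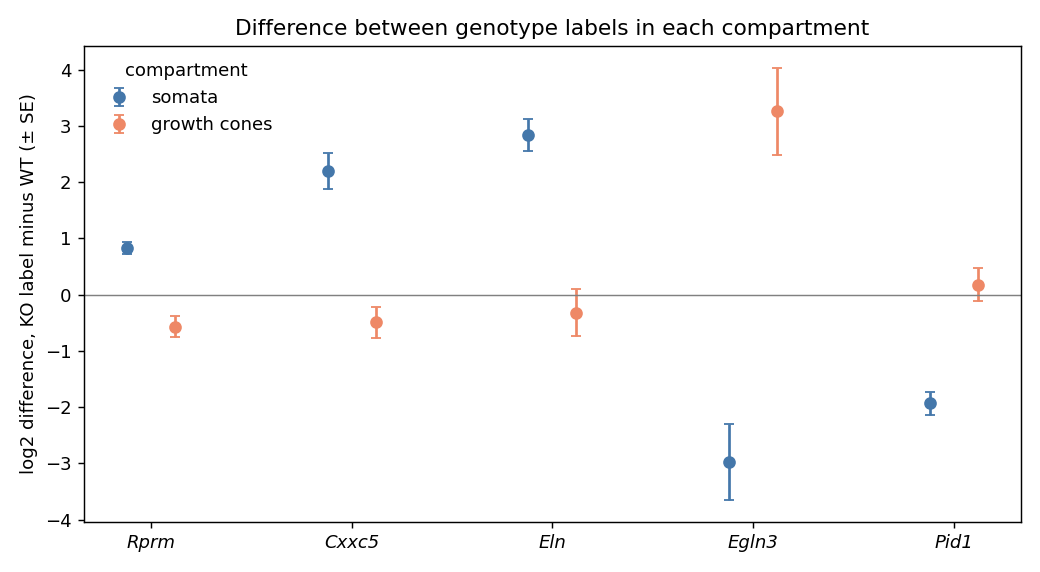
Difference between libraries labelled KO and WT (log2, points) with its SE (bars) in somata and in growth cones, for each gene. The points of each gene lie on opposite sides of 0, farthest from it for Egln3, at -2.98 and 3.26. In growth cones Pid1 at 0.18 ± 0.29 (SE) and Eln at -0.32 ± 0.42 lie within 1 SE of 0, so their side there is not settled.

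Libraries that carry the same experiment number were also set against each other, on log2(CPM + 0.5). In the 4 numbers that both soma groups share, Rprm, Cxxc5 and Eln were higher in the library labelled KO in 4 of 4, and Egln3 and Pid1 were lower in 4 of 4. The soma differences ran from 0.63 to 1.10 for Rprm, from 1.14 to 3.21 for Cxxc5 and from 2.03 to 3.40 for Eln. They ran from -3.93 to -1.32 for Egln3 and from -2.50 to -1.35 for Pid1. Among the 5 numbers shared in growth cones, Rprm was lower with the KO label in 5 and Egln3 higher in 5. Cxxc5 was higher with the KO label in 1 of 5, and Eln and Pid1 were each higher in 2 of 5. The smallest growth cone difference of Egln3 was 0.58, in experiment 8, and the largest was 4.29, in experiment 7.

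**Figure D3:**
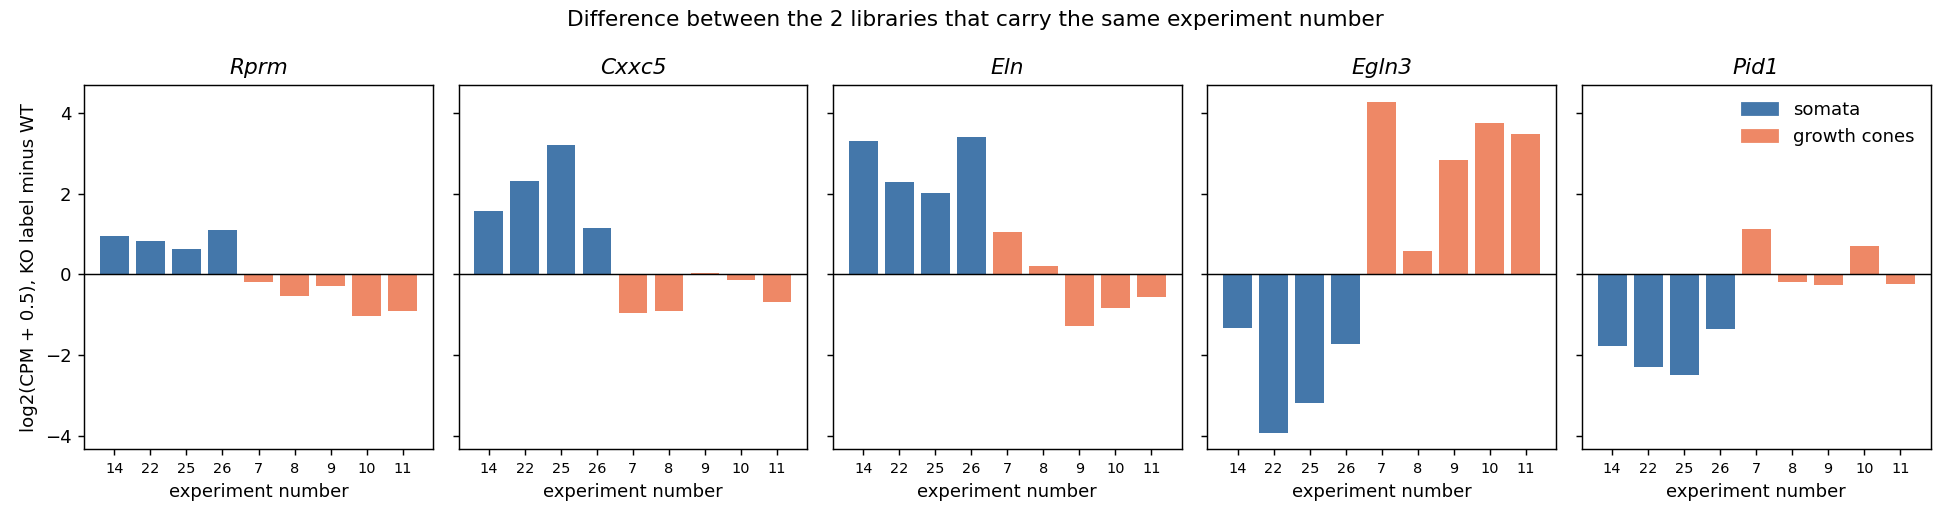
Difference in log2(CPM + 0.5) between the library labelled KO and the WT library of the same experiment number (bars, 1 per number), somata in blue and growth cones in orange. Soma bars of a gene all point the same way, and growth cone bars do so for Rprm (5 of 5 below 0) and Egln3 (5 of 5 above 0).

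The difference between compartments averaged over the labels was a contrast that the selection did not use, and it was tested. On the log scale its estimate is orthogonal to that of the selecting contrast with 5 libraries per group, approximately so in the count model. Both tests share the same spread between libraries, and a small spread favours selection, so the adjusted p-values below are not independent of the selection, which bears most on Eln, the call nearest the threshold. By edgeR's quasi-likelihood test over 17645 genes, 55.0% were called at FDR 0.05, and 21.0% had no overlap between all growth cone and all soma libraries. Of the 5 genes 4 passed, 3 of them higher in growth cones. Rprm was lower in growth cones by a log2 difference of -1.77 ± 0.10 (SE; adjusted p = 1.69e-11, edgeR), and all 10 growth cone libraries were below all 10 soma libraries. Cxxc5 was higher by 2.48 ± 0.22 (adjusted p = 8.02e-09, edgeR), also without overlap. Pid1 was higher by 0.62 ± 0.18 (adjusted p = 0.00791, edgeR), although its WT soma mean of 77.2 CPM was above both growth cone means. Eln was higher by 0.64 ± 0.25 (adjusted p = 0.0327, edgeR), and that call was lost without WT growth cone 10 (0.0653) and under limma-voom (0.0858). Egln3 did not pass, at -0.34 ± 0.48 (adjusted p = 0.568, edgeR). That average joins opposite differences, so it does not mean equal levels in the compartments. The WT means of Egln3 were 18.4 CPM in somata and 1.68 CPM in growth cones. With the KO label they were 2.34 and 15.9 CPM.

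The median of this contrast over all genes was 0.11 with TMM, 0.25 with DESeq2 size factors and 0.37 with upper quartile scaling. It was 0.30 with library totals and -0.17 under limma-voom. The values of Pid1 and Eln with TMM, 0.62 and 0.64, are to be read against the TMM median, since single genes move with the scaling too. With upper quartile scaling Pid1 stood at 0.86 and Eln at 0.89, and under limma-voom Eln stood at 0.58. Tissue, experiment numbers and RNA input (1.8 to 3.1 ng for somata, 0.19 to 3.1 ng for growth cones) go with the compartment and cannot be told apart from it. The labels do not say that libraries are separate animals or litters, so p-values measure the spread between these libraries, which may be technical.

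Per kilobase of exon, which allows genes to be compared, the order of the 5 genes differed between groups. In WT somata the levels were 208 ± 29.0 CPM per kb for Rprm, 9.45 ± 0.35 for Pid1, 6.90 ± 1.87 for Egln3, 1.55 ± 0.56 for Cxxc5 and 0.785 ± 0.304 for Eln. In somata labelled KO they were 371 ± 26.6 for Rprm, 7.12 ± 1.69 for Cxxc5, 5.65 ± 0.99 for Eln, 2.48 ± 0.85 for Pid1 and 0.880 ± 0.711 for Egln3. Cxxc5 and Eln thus exchanged places with Pid1 and Egln3, and the gap between Cxxc5 and Eln was within 1 SD of Cxxc5. In WT growth cones the order was Rprm at 99.99 ± 15.3 CPM per kb, Cxxc5 at 22.2 ± 4.66, Pid1 at 7.01 ± 2.76, Eln at 3.68 ± 1.60 and Egln3 at 0.632 ± 0.543. In growth cones labelled KO it was Rprm at 66.8 ± 11.6, Cxxc5 at 15.5 ± 4.70, Pid1 at 7.85 ± 1.34, Egln3 at 5.96 ± 2.66 and Eln at 2.95 ± 0.998. Pid1 and Egln3 lay within 1 SD of Egln3 there. Rprm exceeded 99.7% of the detected genes per kb in somata labelled KO and 96.0% in growth cones labelled KO, while Egln3 exceeded 36.5% in WT growth cones and 73.5% in those labelled KO.

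Set against growth cones, the soma levels with the KO label moved in different ways relative to those with the WT label. The Cxxc5 mean of 21.4 CPM in somata labelled KO lay between that of WT somata and the 66.7 ± 14.02 CPM of WT growth cones. The Eln mean of 45.7 CPM lay above both growth cone groups, at 29.8 ± 13.0 (WT) and 23.9 ± 8.08 CPM (labelled KO). The Pid1 mean of 20.2 CPM lay below both, at 57.3 ± 22.6 and 64.1 ± 10.9 CPM. Egln3 in somata labelled KO, at 2.34 CPM, was near its level in WT growth cones, and in WT somata, at 18.4 CPM, near that in growth cones labelled KO.

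Close relatives of the members were not called in the selecting contrast. Only 0.0397% of all genes were called there, so nothing is read from this about the relatives. Rprml, the paralog of Rprm, had an interaction of 1.60 ± 0.79 (SE; adjusted p = 0.728, edgeR), with a sign opposite to that of Rprm. Its means were 21.9 ± 11.7 CPM for WT somata and 7.64 ± 4.88 CPM for somata labelled KO. That difference did not pass (adjusted p = 0.455, unadjusted p = 0.0248, edgeR). Rprml was higher in growth cones by 2.30 ± 0.41 (adjusted p = 9.42e-05, edgeR), where Rprm was lower. Cxxc4, the paralog of Cxxc5, had an interaction of -0.61 ± 0.40 (adjusted p = 0.924, edgeR) and was lower in growth cones by a log2 difference of -1.18 ± 0.20 (adjusted p = 5.01e-05, edgeR), where Cxxc5 was higher. The other HIF prolyl hydroxylases, Egln1 and Egln2, had interactions of 0.28 ± 0.37 and 0.52 ± 0.25 (adjusted p = 1.00 and 0.723, edgeR). Their soma label differences were -0.15 and -0.16, against -2.98 for Egln3.

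For each member, lists of genes of the same pathway were examined, 9 lists with 204 genes in the table. By edgeR, 0 of 192 tested list genes passed in the selecting contrast, beside 0.0397% of all genes. In growth cones 0 of 184 passed, beside 0% of all genes. With shares this small, nothing is read from these counts about the lists. At an unadjusted p under 0.05 there were 15 and 8 list genes, beside 1231 of 17645 and 329 of 15419 over all genes. The DESeq2 Wald test called 3 (Numb, Cdkn1a and Dok5) and 1 (Numb), beside 273 and 11 over all genes. In somata 4 of 174 passed, beside 0.731% of all genes, and these 4 were higher with the KO label. From the p53 list 1 of 27 passed, Cdkn1a, the cyclin-dependent kinase inhibitor p21, which rose from 5.61 ± 1.31 to 17.5 ± 2.30 CPM (log2 difference 1.64 ± 0.26 SE, adjusted p = 0.0101, edgeR). The list's median in somata was 0.09, against -0.003 over all genes, and 17 of 27 lay above 0. From the 12 tested genes of the mitotic entry list, Pkmyt1, a kinase that inhibits CDK1, rose by 1.11 ± 0.21 (adjusted p = 0.0397, edgeR), with a list median of 0.07. Its call was lost in 10 of 10 fits that left out 1 library.

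Of 33 Wnt and BMP genes tested in somata 1 passed, the ligand gene Wnt7b, from 35.9 ± 19.96 to 113 ± 13.5 CPM (1.65 ± 0.31 SE, adjusted p = 0.0338, edgeR), with a list median of 0.00. Of 26 genes for adaptors with a PTB domain 1 passed, Dok5, at 0.57 ± 0.11 (adjusted p = 0.0439, edgeR), with a list median of 0.06. Each of these 2 calls was lost in 8 of 10 fits that left out 1 library (adjusted p up to 0.110 and 0.137, edgeR), and that of Cdkn1a in 0 of 10. The Cdkn1a call was lost in 1 of 9 other alternatives. None of the 11 CXXC zinc finger genes, 14 elastic fibre genes, 9 HIF hydroxylases and factors, 23 HIF targets or 20 insulin and LRP receptor genes tested in somata passed in edgeR. Their smallest adjusted p-values were 0.337, 0.140, 0.157, 0.136 and 0.255. The list medians were -0.05, 0.25, 0.02, -0.06 and 0.00. At an unadjusted p under 0.05 these 5 lists held 2, 2, 2, 3 and 2 genes, beside 1278 of all 14911 genes tested. The DESeq2 Wald test called 11 list genes in somata over all 9 lists, beside 402 over all genes.

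Between compartments the lists split, beside a share of 55.0% called over all genes and a median of 0.11. Of 21 elastic fibre genes tested, 10 were higher and 1 lower in growth cones, with a median of 1.15. Among them were Efemp2 (2.87 ± 0.31 SE, adjusted p = 1.90e-07, edgeR), which encodes a fibulin needed for elastic fibre assembly, and Loxl1 (4.75 ± 1.00), an elastin crosslinking enzyme. Of 24 HIF targets 4 were higher and 10 lower, with a median of -0.70, and Ldha, the lactate dehydrogenase gene, was lower by a log2 difference of -1.60 ± 0.09 (adjusted p = 1.91e-11, edgeR). Of the 10 HIF hydroxylases and factors 2 were higher and 4 lower, with Hif1a at -1.58 ± 0.16 and a median of -0.96. Of 21 insulin and LRP receptor genes 2 were higher and 12 lower (median -0.94), and of 26 genes for PTB adaptors 5 were higher and 13 lower (median -0.70). Of 28 p53 targets 7 were higher and 10 lower (median -0.46), of 13 mitotic entry genes 2 were higher and 1 lower (0.45), of 11 CXXC genes 3 were higher and 4 lower (-0.40), and of 39 Wnt and BMP genes 15 were higher and 9 lower (0.31).

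The genes whose log2 levels followed each member most closely were ranked by Pearson r over the 20 libraries, among 12786 genes whose mean reached 5 CPM in some group. Symbols that are only identifiers were skipped, so a gene without a name may have followed a member more closely. The libraries share compartment and labels, so r is a description. Rprm was followed by Dok5 (0.970), Rgmb (0.949) and Cadm1 (0.940). Dok5 went from 339 ± 46.6 to 506 ± 53.6 CPM in somata and from 127 ± 18.4 to 94.2 ± 16.3 CPM in growth cones, from the WT to the KO label. Cxxc5 was followed by Hap1 (0.952), Cdkn1a (0.945) and Hs3st4 (0.930). Hap1, which encodes a binding partner of huntingtin, had means of 1.73 ± 2.04 and 12.04 ± 1.75 CPM in WT somata and somata labelled KO, and of 149 ± 30.0 and 175 ± 54.3 CPM in growth cones. Eln was followed by Ephx4 (0.821), Bcl11a (0.791) and Camk1 (0.789). Ephx4 had means of 13.1 ± 3.40 and 46.6 ± 5.49 CPM in the soma groups and 40.8 ± 12.1 and 35.4 ± 13.6 CPM in growth cones.

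Pid1 was followed by Stxbp6 (0.855), Stat5b (0.791) and Homer2 (0.758). Stxbp6, whose product binds SNARE proteins, had means of 36.7 ± 6.34 CPM in WT somata and 1.44 ± 1.33 CPM in somata labelled KO, against 27.6 ± 18.8 and 29.2 ± 16.8 CPM in growth cones. Egln3 had the weakest followers, Vdac1 (0.693), Tmem18 (0.664) and Pid1 itself (0.639). Vdac1 varied over a much smaller range than Egln3, with group means from 357 to 454 CPM. With Spearman in place of Pearson correlation, 2 of these 3 genes stayed in the top 3 for Rprm and Egln3, 1 for Cxxc5 and Pid1 and 0 for Eln.

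Markers of other cell types were summed in CPM of library totals, beside these results. Subcerebral projection neuron markers stood at 2123 ± 125 and 1944 ± 68.0 CPM in WT somata and somata labelled KO, and at 1050 ± 84.1 and 988 ± 142 CPM in growth cones. By edgeR, 5 of these 13 genes were called in somata, beside 0.731% of all genes. Of these, 3 were higher with the KO label (Etv1, Tox and Diaph3) and 2 lower (Pcp4 and Crym). Corticothalamic markers summed to 1195 ± 70.0 and 934 ± 130 CPM in somata, and 4 of 8 were called there. With the KO label Tle4 and Hs3st4 were higher and Sla and Crym lower, with a list median of 0.94. Callosal projection neuron markers summed to 494 ± 66.3 and 482 ± 84.2 CPM in somata, and 0 of 12 were called, with a list median of 0.03. The part of these neuron types in the soma differences of the 5 genes was not tested. Smooth muscle and pericyte markers, the cells best known for Eln, summed to 5.04 ± 2.79 CPM in WT somata (0.393 to 7.52) and 6.07 ± 4.22 CPM in somata labelled KO (1.31 to 12.8), over 11 genes with Kcnj8 at 0 in all 10 libraries. Fibroblast and meningeal markers summed to 10.6 ± 9.70 and 11.5 ± 5.69 CPM there. Eln levels are TMM scaled and these sums are not, so they were not compared. The part of these cells in the soma level of Eln was not tested. In growth cones smooth muscle and pericyte markers summed to 52.6 ± 22.01 and 55.8 ± 17.5 CPM, with 1 of 11, Cnn1, at 0 in the WT libraries, and fibroblast markers to 231 ± 48.2 and 220 ± 80.8 CPM. The part of these cells in the growth cone level of Eln was not tested.

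The sum of interneuron markers also moved with the soma labels, although 1 of 11 genes tested was called, from 145 ± 27.6 CPM (122 to 190) to 483 ± 64.2 CPM (391 to 541) over 13 genes, none at 0 in all libraries of a group. That difference lay in Npy, singled out after its values were seen, at 106 ± 23.3 and 443 ± 50.6 CPM, and the other 12 markers summed to 39.7 ± 15.9 and 39.7 ± 19.7 CPM. Of 15 hindbrain and spinal cord markers, 5 were at 0 in all WT soma libraries and 8 in all those labelled KO, and the list summed to 0.160 and 0.0951 CPM. In growth cones it summed to 151 ± 34.1 CPM (116 to 196) and 161 ± 74.3 CPM (70.6 to 234). Astrocyte and radial glia markers summed to 186 ± 108 and 240 ± 96.5 CPM in the soma groups and 2436 ± 277 and 2392 ± 282 CPM in growth cones. These lists thus differed between compartments, and their part in the compartment differences of the 5 genes was not tested.

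Under 28 alternatives to the selecting contrast, 20 that each left out 1 library and 8 others, the value of each gene kept its sign. Rprm ranged from -1.50 to -1.30, Cxxc5 from -2.93 to -2.54, Eln from -3.34 to -2.87, Egln3 from 5.88 to 7.11 and Pid1 from 1.94 to 2.32. Without Soma 15 labelled KO, where Egln3 had 6 counts, its value was 5.95, and without WT growth cone 8 it was 6.85.

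**Figure D4:**
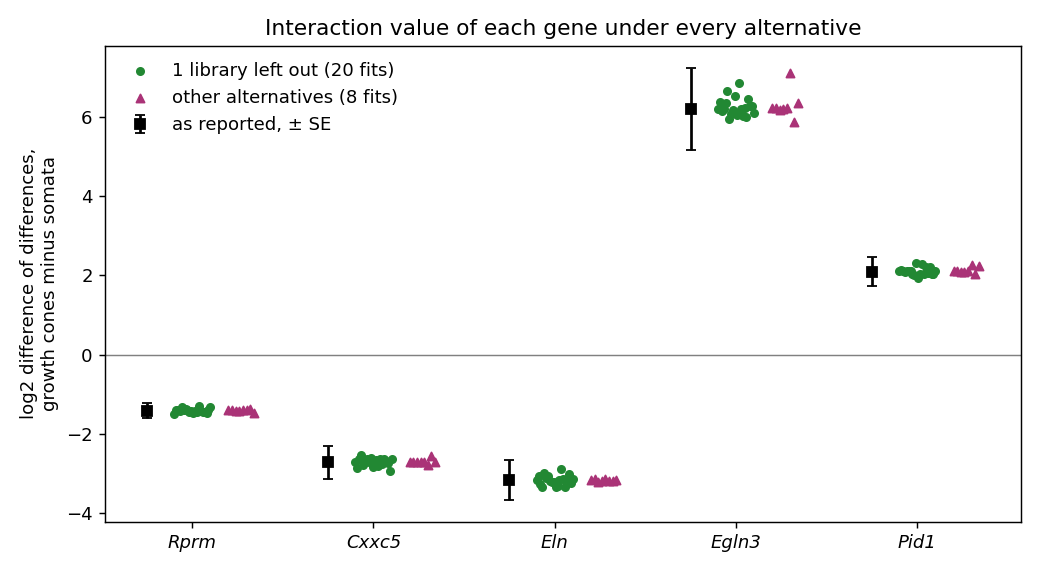
Label difference in growth cones minus that in somata (log2) for each gene as fitted over 20 libraries (squares, bars are SE), with 1 library left out (circles, 20 fits) and under the other alternatives (triangles, 8 fits). Values stay on 1 side of 0 for each gene, and Egln3 spreads the most, from 5.88 to 7.11.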

How the data were processed

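RNA was measured in 20 libraries made with SMART-seq v4 and Nextera XT, per the labels' protocols. The authors deposited 1 table of raw gene counts, made with Trimmomatic 0.39, STAR 2.7.1a and featureCounts 1.5.0 per the submitters' processing notes. These notes name GRCm39, but the exon lists of 54435 of 55487 genes (98.1%) equal those of GENCODE M21 on GRCm38, which was used for symbols (55141 genes). Treatment of multimapping reads is not given in the sources used here.

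Groups came from sample titles. Genes were filtered with filterByExpr (minimum count 10), scaled by TMM and tested with edgeR 4.0.16 in R 4.3.3 (quasi-likelihood F test, Benjamini-Hochberg over all genes tested, FDR 0.05). SE was derived from F. Soma and growth cone differences used the 10 libraries of the compartment, and the interaction and compartment contrasts all 20. Bcl11b was compared by exact permutation of log2(CPM + 0.5). Alternatives used DESeq2 1.42.0, limma 3.58.1 (voom), other scalings, filters, covariates and left-out libraries. No 2 libraries of a group were alike within sampling noise (smallest chi-square per degree of freedom 43.1). The fits were tested on simulated counts. Named genes were the members, their paralogs, the other genes called and the 2 nearest outside the threshold. Also named were the 3 genes most like each member, skipping symbols that are only identifiers. Up to 4 list genes were named per comparison, lowest p first, and fewer are printed for the compartment lists. The members and lists were chosen with earlier results of these data known.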

Additional observations from a re-analysis of the deposited data

Results flagged for a closer look

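Egln3 in WT growth cone 8 stood apart from the other 4 WT growth cone libraries, at 4.16 CPM against 0.532 to 1.48 CPM, with a gap of 0.737 of the group's range on the CPM scale (limit 0.71 in Dixon's test). On log2(CPM + 0.5) the ratio was 0.566, below the limit. Without that library the growth cone difference of Egln3 was 3.88 in place of 3.26. It was the only such value on either scale among the 24 groups of 5 libraries tested, 4 for each of the 5 genes and for Bcl11b, where chance gives about 1 in 20. Of the list genes, 0 passed the selecting contrast in edgeR (15 at an unadjusted p under 0.05), beside 0.0397% of all genes, and 3 by the DESeq2 Wald test. The 5 genes themselves passed the selecting contrast because they were chosen by it, and are not counted here.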

How the results depend on the processing

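The interaction called 7 genes in edgeR, 273 by the DESeq2 Wald test, 4 with a covariate for detected genes per library and 5 to 12 when 1 library was left out (12 without WT growth cone 7, 11 without growth cone 7 labelled KO). Leaving out 1 library ended the call of Pid1 in 15 of 20 fits, Egln3 in 5, Eln in 2 and Rprm and Cxxc5 in 0. The soma difference called 109 genes, 402 by DESeq2, 30 with all 20 libraries in 1 fit and 67 to 107 when 1 library was left out (67 without soma 22 labelled KO, 68 without WT soma 22). The growth cone difference called 0, 11 by DESeq2 and 7 with all 20 libraries in 1 fit. The cause was not tested. With the experiment number as a replicate block, the interaction called 0 genes, the soma difference 34 and the growth cone difference 0. Of the 4 list genes called in somata only Dok5 passed under that block, and Cdkn1a did not (adjusted p = 0.220, edgeR). Deviations of same-numbered libraries correlated at 0.00952 to 0.135 in somata and 0.0251 to 0.108 in growth cones. The limit used for pairing, 0.1, was passed in 2 of 4 and 1 of 5 numbers. In 2 of 4 and 3 of 5 numbers the libraries matched each other best. These values do not show that same-numbered libraries are unpaired, so they give no ground to prefer the fit without the block. Under that block the Bcl11b difference in somata was 0.68 (exact sign-flip permutation test, p = 0.125, the smallest that 4 pairs allow). Leaving out 1 library, the Bcl11b difference ranged from 0.65 to 0.79 in somata and from -0.16 to 0.09 in growth cones, where it turned positive without WT growth cone 8 (0.0243) or 9 (0.0443) or growth cone 7 (0.0899), 8 (0.0784) or 10 (0.00191) labelled KO. The compartment calls of Rprm, Cxxc5 and Pid1 held in 27 of 27 alternatives, and Egln3 passed in 0 of 27. The fewest counts behind a value of the 5 genes were those of Egln3, with 6 to 177 in somata labelled KO, the most deeply sequenced group, and 16 to 114 in WT growth cones.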
